A study of Homo sapiens with 5 samples.

Results

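The genes *PLB1*, *PLA2G4C*, *PLA2G6*, *PLA2G7*, *PLA2G15*, *PLD1*, *PLD3*, *DAGLA*, *DAGLB* and *MGLL* encode human phospholipases or other lipases of lipid signalling, and were followed across all 5 arrays of the series. They are 10 of the 19775 genes with a probe set of their own in the table, and they were read by 24 probe sets that carry their symbol alone. The list was drawn up by gene family and was in part chosen by the signals on these same arrays: *PLB1*, *PLA2G4C*, *PLA2G6* and *DAGLA* were put forward as differing on single arrays. Their differences are therefore given as descriptions, with no test. The cells were MonoMac6, a line derived from a human monocytic leukaemia, cultured for 12 h with 100 nM leukotriene B4 (LTB4), leukotriene C4 (LTC4), lipoxin A4 (LXA4) or lipoxin B4 (LXB4), or left unstimulated. The eicosanoids were added from a DMSO stock, while nothing is stated about DMSO in the unstimulated culture. Each condition was hybridised to 1 array, so no value below has a measured error, and a compound cannot be told apart from the culture and the array that carried it.

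Phospholipases cut membrane phospholipids. Those of the A2 type free a fatty acid such as arachidonic acid, the precursor of the leukotrienes and lipoxins used here, and leave a lysophospholipid. Phospholipase D frees the head group and leaves phosphatidic acid. The diacylglycerol lipases DAGLA and DAGLB turn diacylglycerol into the endocannabinoid 2-arachidonoylglycerol, which monoacylglycerol lipase (MGLL) cuts to arachidonic acid and glycerol. In monocytes and macrophages this chemistry supplies substrate for eicosanoid synthesis.

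Start-site windows in RefSeq (GRCh38.p14), each 300 bases long with 250 before and 50 after the annotated start, were found for 7 of the 10 genes. Of the 4 genes put forward for single arrays, *PLB1* and *PLA2G6* have such a window, and both are shown because their base composition differs while both genes were dim on these arrays. Capitals mark every match, on either strand, to the TATA box motif TATAAA, the box named CCAAT, the GC box GGGCGG or the AP-1 motif TGACTCA. No 2 matches overlap in these windows.
PLB1, chr2:28495810-28496109, plus strand: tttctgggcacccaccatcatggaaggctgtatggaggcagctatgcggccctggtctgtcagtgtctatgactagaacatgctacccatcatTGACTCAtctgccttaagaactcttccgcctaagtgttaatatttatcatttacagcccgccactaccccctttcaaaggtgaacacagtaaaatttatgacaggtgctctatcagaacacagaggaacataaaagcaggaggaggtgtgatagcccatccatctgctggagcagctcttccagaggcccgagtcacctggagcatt
PLA2G6, chr22:38181781-38182080, minus strand: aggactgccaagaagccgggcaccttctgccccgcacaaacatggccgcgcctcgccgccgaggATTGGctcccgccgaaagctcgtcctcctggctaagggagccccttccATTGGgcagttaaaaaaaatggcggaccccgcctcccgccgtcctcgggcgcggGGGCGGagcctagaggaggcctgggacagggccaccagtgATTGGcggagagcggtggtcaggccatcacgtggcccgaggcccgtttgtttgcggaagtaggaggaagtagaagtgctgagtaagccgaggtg
The *PLB1* window had 4 CpG dinucleotides and 48.7% G and C, with 1 match to TGACTCA, a motif present in 4.95% of the 35116 windows in the table. The *PLA2G6* window had 25 CpG dinucleotides and 65.3% G and C, with 3 matches to CCAAT (in 34.6% of all windows) and 1 to GGGCGG (in 45.0%). The TATA box motif, present in 11.5% of all windows, was in neither. A match is a description of letters, and nothing about the binding of a factor was measured.

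Signals are linear intensities, scaled by 1 factor per array, and values under a floor of 48.7 (the median of all probe sets) were set to that floor. Signals of different probe sets depend on their probes and are not compared with each other. All 10 genes were above the floor on at least 1 array, and 9 of them on all 5 arrays with the probe set of highest mean signal, which represents the gene. Of the 24 probe sets, 18 were above the floor on every array, 3 on some and 3 on none. Over all 15374 measured genes, the share at least 2-fold from unstimulated cells was 2.43% with LTB4, 2.85% with LTC4, 2.39% with LXA4 and 2.47% with LXB4. Of 10 genes listed as monocytic markers with a probe set, 8 were above the floor on all 5 arrays. LYZ ranged from 36110 to 49090, PTPRC (CD45) from 3535 to 3851, CD14 from 188.5 to 319 and ITGAM from 127 to 178. FCGR1A was under the floor on all 5 arrays and CD4 on 2. Of the markers of other cell types, 0 of 5 for T cells were above the floor on every array, and 1 in each of the other 4 lists. These were the B cell marker CD79A (123 to 168), the globin HBB (121 to 142), the collagen COL1A1 (177 to 299) and the keratin KRT18 (675 to 843).

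**Figure D1:**
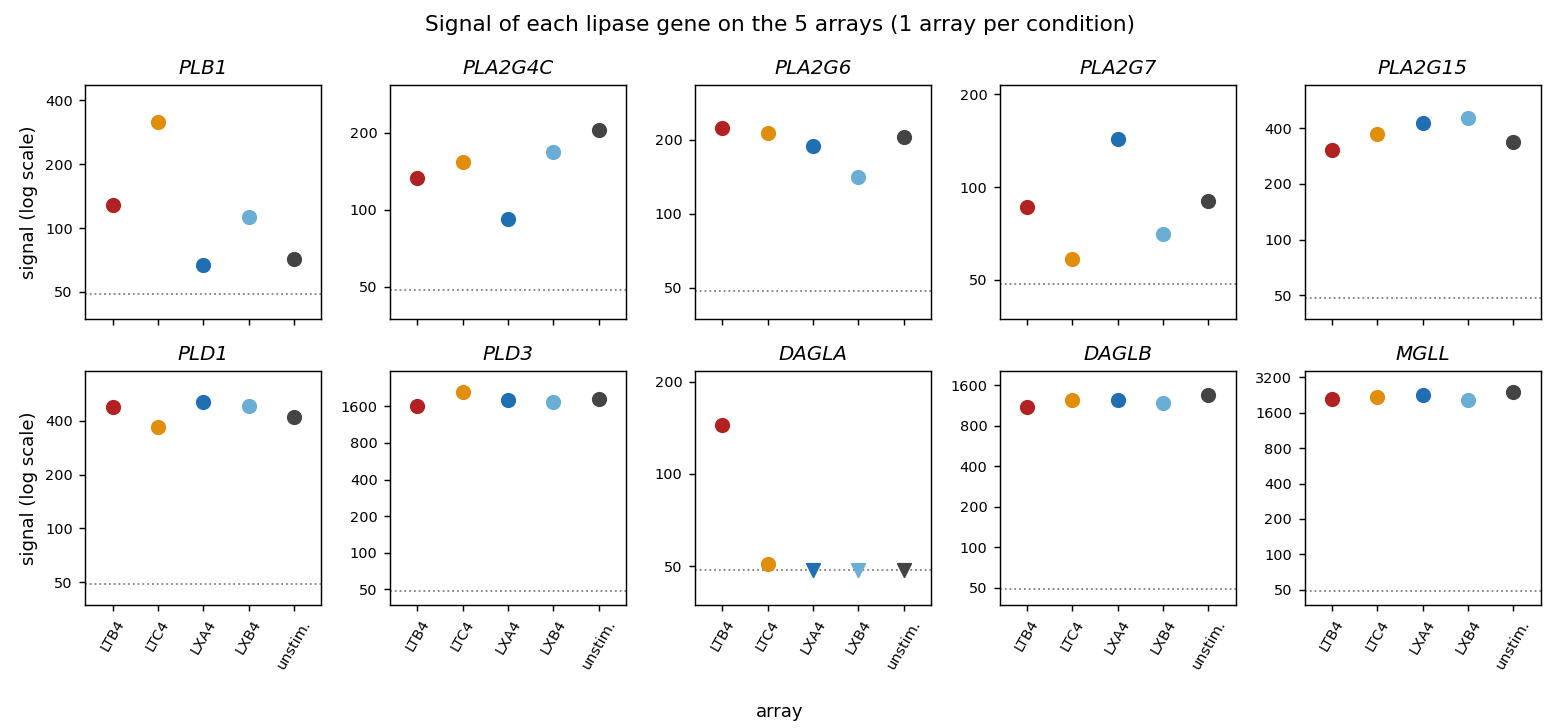
Signal of each of the 10 genes (1 panel each, log scale) on the LTB4, LTC4, LXA4, LXB4 and unstimulated arrays, 1 point per array. The dotted line is the floor of 48.7, and triangles stand for values under it. PLB1 stands highest on the LTC4 array at 315, and DAGLA is clear of the floor on the LTB4 array alone.

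*PLB1*, a membrane phospholipase B known from the intestinal brush border, had the widest range of the 10 genes. Its signal was 129 with LTB4, 315 with LTC4, 67.3 with LXA4 and 113 with LXB4, against 71.7 in unstimulated cells. The LTC4 array was thus alone at the top, LTB4 and LXB4 were intermediate, and LXA4 lay beside the unstimulated cells. With LTC4 the signal was 4.39-fold that of unstimulated cells, a log2 difference of 2.13, and 2.44-fold that of the next array. It was the single member at least 2-fold higher with LTC4, where 1.2% of all genes were. The differences from unstimulated cells were 0.85 with LTB4, 0.66 with LXB4 and -0.09 with LXA4 on the log2 scale. The last was 0.095 after quantile normalization, so no direction is given for it. As a yardstick, the SD of log2 values between stimulated arrays over the 500 genes nearest to *PLB1* in signal was 0.40. That spread includes any real differences among the compounds. It is a spread of single values, and so narrower than that of a difference between arrays. It was taken after flooring, which narrows it where genes of like signal have values set to the floor. The like value for *PLB1* itself, the SD over its stimulated arrays, was 0.925. In RNA of whole cultures, a change in the share of cells that carry a transcript and a change per cell cannot be told apart.

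The higher *PLB1* signal rests on 1 probe set. The second probe set of the gene was under the floor on all 5 arrays, so it gave no difference in either direction. The LTC4 array was also the one with the brightest control probe sets for ribosomal RNA. The middle 18S probe set had 913 with LTB4, 3073 with LTC4, 365 with LXA4 and 1056 with LXB4, against 186 in unstimulated cells. The order of the arrays for that control was close to the order for *PLB1*, with LTB4 and LXB4 exchanged at the second place and the unstimulated array lowest in place of LXA4. Its part in the *PLB1* difference was not tested. The ratio of 3′ to 5′ signal was even across arrays, between 0.996 and 1.06 for GAPDH and between 1.10 and 1.14 for ACTB.

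*PLA2G4C*, the cytosolic phospholipase A2 gamma, which acts without calcium and is held at membranes by a lipid anchor, was lower on every stimulated array. Its signal was 133 with LTB4, 153 with LTC4, 91.6 with LXA4 and 168 with LXB4, against 206 in unstimulated cells. LXA4 was the lowest array and LXB4 the nearest to unstimulated cells, so both ends of the stimulated range were lipoxins. The log2 differences from unstimulated cells were -0.63 with LTB4, -0.42 with LTC4, -1.17 with LXA4 and -0.29 with LXB4. With LXA4 the signal was 2.24-fold lower, and *PLA2G4C* was the single member at least 2-fold lower there, where 1.69% of all genes were. The yardstick SD at its signal was 0.34, beside 0.38 for its own stimulated arrays. Its second probe set was under the floor on all arrays, with at most 5.35, so this gene too was read by 1 probe set.

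*PLA2G6*, the calcium-independent phospholipase A2 beta, whose loss in people causes a childhood neurodegenerative disease, differed less than its selection implied. The representing probe set had 222 with LTB4, 212 with LTC4, 188 with LXA4 and 141 with LXB4, against 204 in unstimulated cells. The highest array was 1.58-fold over the lowest, so no pair of arrays was 2-fold apart. LXB4 was the lowest array on this probe set and on a second one, which had 179 with LTB4, 179 with LTC4, 163 with LXA4 and 128 with LXB4, against 227 in unstimulated cells. On that second probe set all 4 stimulated arrays lay below the unstimulated one, whereas on the first LTB4 lay above it. With LTC4 the log2 difference on the first was 0.06, and -0.015 in the deposited values, so no direction is given for it. Both are of the class whose probes can match other transcripts, as the letter x in their names records. The control probe sets for ACTB and GAPDH were also lowest with LXB4. There they had 0.67 to 0.70 (ACTB) and 0.75 to 0.78 (GAPDH) of the unstimulated signal, against 0.90 to 1.08 on the other stimulated arrays. *PLA2G6* had 0.69 with LXB4 on its representing probe set, and the part of the array in this was not tested.

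The third *PLA2G6* probe set ran in another direction. It read 74.3 with LTB4, 95.9 with LTC4 and 58.4 with LXA4, while LXB4 and unstimulated cells were under the floor. With LTC4 it was at least 1.97-fold over unstimulated cells, beside log2 differences of 0.06 and -0.34 on the brighter probe sets. The 3 probe sets thus disagreed on the leukotriene arrays, and only LXB4 was lowest, or under the floor, on each.

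**Figure D2:**
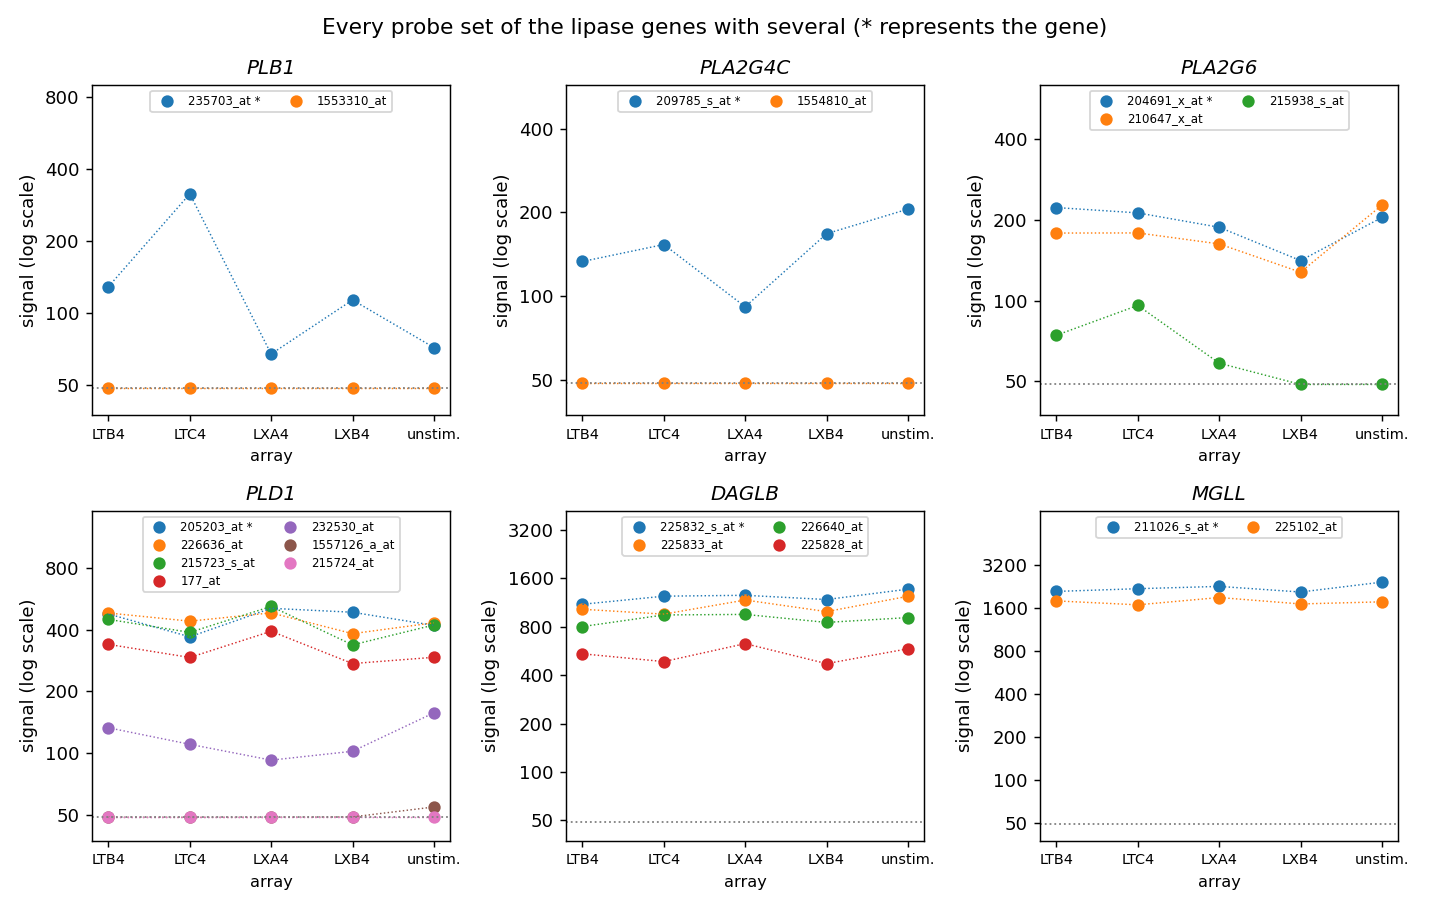
Signal (log scale) of every probe set of the 6 genes with more than 1, on the LTB4, LTC4, LXA4, LXB4 and unstimulated arrays, with values under the dotted floor of 48.7 drawn on it. Dotted links join the points of a probe set and are no time course. The 3 probe sets of PLA2G6 take different courses, while the 4 of DAGLB and the 2 of MGLL stay nearly level.

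*PLA2G7* encodes the secreted lipoprotein-associated phospholipase A2, which inactivates platelet-activating factor and is made by macrophages. Its single probe set had 86.3 with LTB4, 58.6 with LTC4, 143 with LXA4 and 70.6 with LXB4, against 90.1 in unstimulated cells. LXA4 was the highest array and LTC4 the lowest. Against unstimulated cells the log2 differences were -0.06 with LTB4, -0.62 with LTC4, 0.67 with LXA4 and -0.35 with LXB4, none of them 2-fold. The first of these was 0.03 after quantile normalization. The yardstick SD at this low signal was 0.45, beside 0.55 for the stimulated arrays of *PLA2G7* itself.

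*PLA2G15*, the phospholipase A2 of the lysosome, had 303 with LTB4, 372 with LTC4, 426 with LXA4 and 456 with LXB4, against 338 in unstimulated cells. Both lipoxin arrays stood above the other 3, with log2 differences from unstimulated cells of 0.34 (LXA4) and 0.43 (LXB4). With LTB4 it was -0.16 and with LTC4 0.14. The highest array was 1.51-fold over the lowest, and the yardstick SD was 0.20, beside 0.26 for its own stimulated arrays.

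*PLD1*, a phospholipase D that makes phosphatidic acid in membrane traffic, was read by 7 probe sets, of which 5 were above the floor on all arrays. The representing one had 476 with LTB4, 369 with LTC4, 508 with LXA4 and 486 with LXB4, against 419 in unstimulated cells. LTC4 was the lowest array and LXA4 the highest, 1.38-fold apart. LXA4 was highest on 4 of the 5 probe sets, at 392 to 518, against 293 to 432 in unstimulated cells. The fifth went the other way, with LXA4 at 92.4 as the lowest array and 157 in unstimulated cells. With LXB4 the sign depended on the probe set: the log2 difference was 0.21 on the representing one and -0.62 to -0.10 on the other 4. The mean over all measured *PLD1* probe sets gave -0.195 for LXB4, so no direction is given for this gene.

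*PLD3*, which carries the phospholipase D fold but is known as an endolysosomal exonuclease of single-stranded nucleic acids, varied little. Its signal was 1618 with LTB4, 2085 with LTC4, 1809 with LXA4 and 1739 with LXB4, against 1822 in unstimulated cells. LTC4 was the highest and LTB4 the lowest array, 1.29-fold apart. The yardstick SD at this brightness was 0.12, beside 0.15 for the stimulated arrays of *PLD3* itself. The 2 leukotriene arrays, its highest and lowest, differed by 0.37 on the log2 scale.

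*DAGLA*, the diacylglycerol lipase best known from neurons, was under the floor in unstimulated cells and on both lipoxin arrays. It had 144 with LTB4 and 50.8 with LTC4, the second of these barely above the floor of 48.7. LTB4 was therefore the one array on which this gene was clearly measured. With LTB4 it was at least 2.97-fold over unstimulated cells and 2.85-fold over LTC4. It was the single member at least 2-fold higher with LTB4, where 0.702% of all genes were. *DAGLA* has 1 probe set here, so no other reading of the gene stands beside it.

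*DAGLB*, the related diacylglycerol lipase known to act in mouse macrophages, and *MGLL* were bright and nearly level. *DAGLB* had 1102 with LTB4, 1237 with LTC4, 1253 with LXA4 and 1179 with LXB4, against 1368 in unstimulated cells. *MGLL* had 2075 with LTB4, 2168 with LTC4, 2250 with LXA4 and 2055 with LXB4, against 2410 in unstimulated cells. On these probe sets the unstimulated array was the highest for both genes, by a log2 difference of 0.10 to 0.31 in size, and LXA4 was the next. Their differences stayed below 0 on all 4 arrays after quantile normalization and in the deposited values. The lower signals were not shared by all probe sets. Those of *DAGLB* gave -0.08 to 0.11 with LXA4, besides -0.13 on the representing one, and the second *MGLL* probe set had 1781, 1672, 1881 and 1696 with LTB4, LTC4, LXA4 and LXB4, against 1755 in unstimulated cells. Its log2 differences lay between -0.07 and 0.10. *DAGLA* was thus measured clearly on 1 array and *DAGLB* on all 5. With a single *DAGLA* probe set, a faint transcript cannot be told apart from weak probes, so the genes are not compared.

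**Figure D3:**
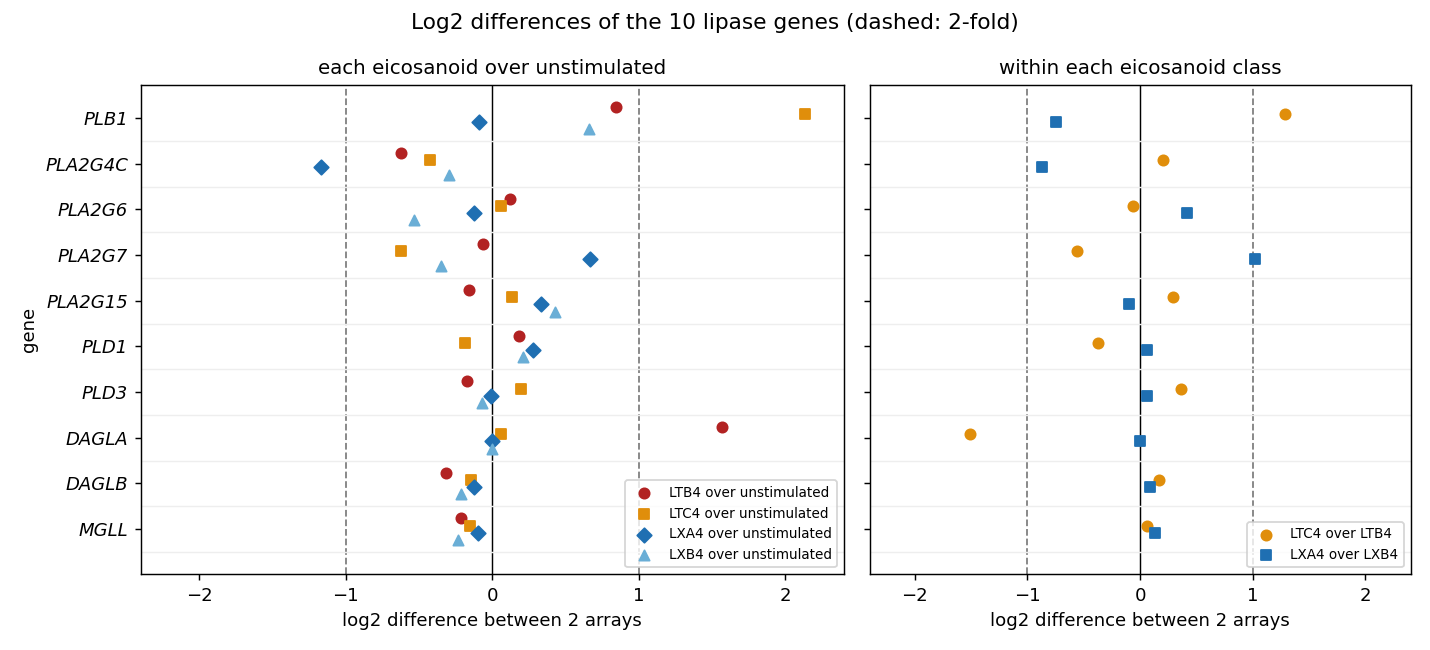
Log2 difference between 2 arrays (horizontal axis) for each of the 10 genes, with each eicosanoid over unstimulated cells on the left and the comparisons within each class on the right; dashed lines mark 2-fold. Beyond them on the left lie PLB1 with LTC4 (2.13), DAGLA with LTB4 (1.57, a lower bound) and PLA2G4C with LXA4 (-1.17).

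Set together, LTB4, LTC4 and LXA4 each had 1 member at least 2-fold from unstimulated cells, namely *DAGLA*, *PLB1* and *PLA2G4C*. These genes were put forward as differing on single arrays, so nothing is read from their falling on different ones. LXB4 had 0 such members, where 0.507% of all genes were higher and 1.96% lower. The other direction had 0 members with LTB4 (1.72% of all genes lower), LTC4 (1.65% lower) and LXA4 (0.702% higher). At 1.5-fold 3 members passed with LTB4, 2 with LTC4, 2 with LXA4 and 1 with LXB4, beside 10.6%, 12.2%, 9.87% and 11.1% of all genes. Of the differences that reached 2-fold, the smallest was that of *PLA2G4C* with LXA4 (-1.17), and of those that fell short of it the largest was that of *PLB1* with LTB4 (0.85). The median log2 difference over the 10 genes was -0.11 with LTB4, -0.04 with LTC4, -0.05 with LXA4 and -0.14 with LXB4. Over all measured genes it was 0.00 with LTB4, LXA4 and LXB4 and 0.06 with LTC4. These 4 comparisons share the unstimulated array, so a high or low reading there enters each of them. *PLA2G4C*, *DAGLB* and *MGLL*, 3 members, were below unstimulated cells on all 4 stimulated arrays, where 21.3% of all genes were. No member was above it on all 4, where 24.2% were.

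Brightness divided the list. Of the 5 members with a mean signal under 200, 4 had a highest array at least 2-fold over the lowest: *PLB1*, *PLA2G4C*, *PLA2G7* and *DAGLA*. None of the 5 brighter ones had. Over all genes this share was 8.57%, made up of 17.9% of those under a mean signal of 100, 23.0% between 100 and 200, 4.52% between 200 and 500, 0.731% between 500 and 2000 and 0.192% above. Of the 4 members, *PLB1*, *PLA2G4C* and *DAGLA* were put forward as differing on single arrays, so nothing is read from the count. A highest array at least 2-fold over the next one, as for *PLB1* and *DAGLA*, was found in 0.572% of all genes, in 0.229% between signals of 100 and 200 and in 1.67% under 100. These shares include *PLB1* and *DAGLA* themselves. Both were put forward as differing on single arrays, so nothing is read from how rare the pattern is.

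**Figure D4:**
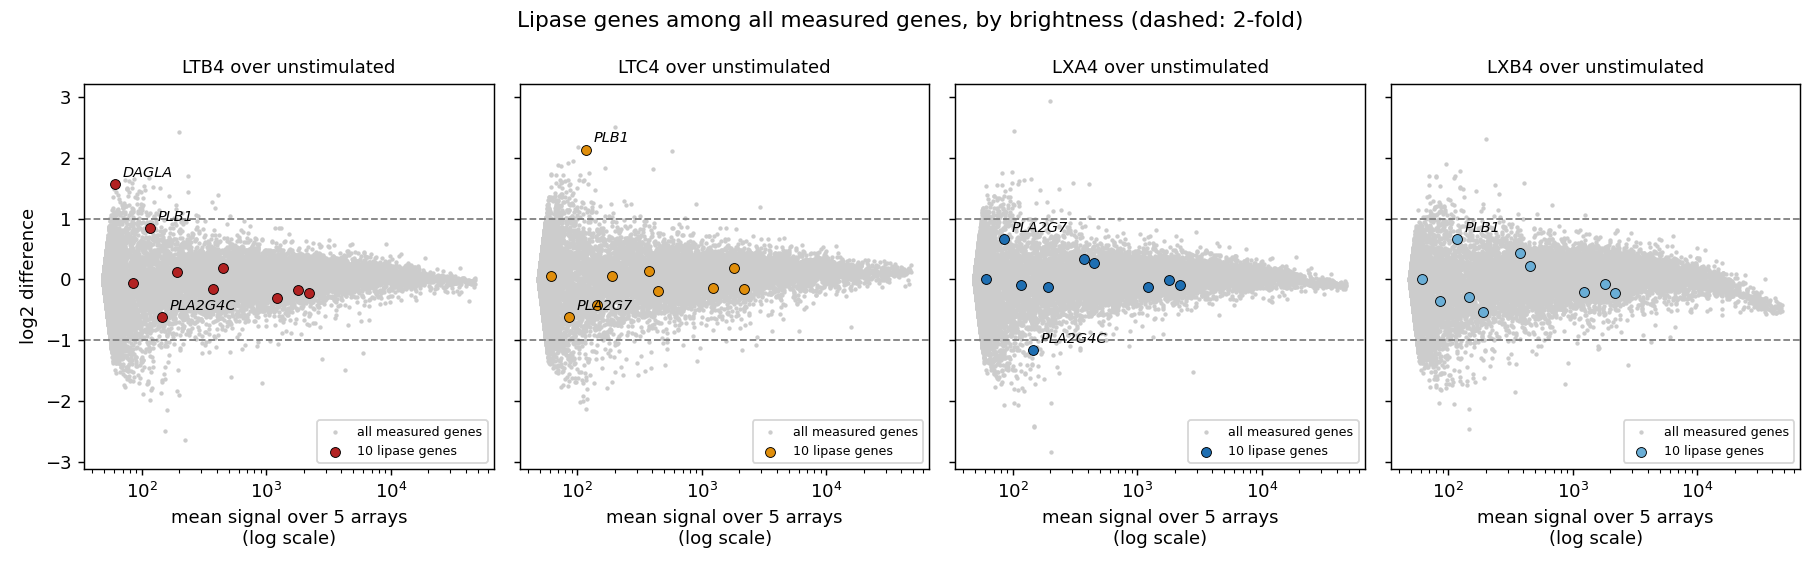
Log2 difference of each eicosanoid over unstimulated cells (vertical axis, 1 panel per compound) against the mean signal over the 5 arrays (log scale); grey points are the 15374 measured genes, coloured points the 10 lipase genes, and dashed lines mark 2-fold. The spread of all genes is widest at low signal, where PLB1, DAGLA, PLA2G4C and PLA2G7 lie.

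The compounds were given at 1 dose and 1 time, so they can be set side by side. LTC4 carries a glutathione that LTB4 lacks. Between these leukotrienes 2 members were at least 2-fold apart, in opposite directions, where 2.43% of all genes were. *PLB1* was 2.44-fold higher with LTC4 (315) than with LTB4 (129), where 1.56% of genes were at least 2-fold higher. *DAGLA* was 2.85-fold lower with LTC4 (50.8) than with LTB4 (144), where 0.865% were at least 2-fold lower. The other 8 members lay between log2 differences of -0.56 (*PLA2G7*) and 0.37 (*PLD3*). LXA4 and LXB4 are isomers that differ in the position of a hydroxyl group. Between them 1 member, *PLA2G7*, was 2-fold apart, at 143 with LXA4 and 70.6 with LXB4 (2.02-fold, log2 1.02), where 1.31% of genes were 2-fold apart, 0.82% higher and 0.494% lower. After quantile normalization this was 0.91, which is under 2-fold. *PLA2G4C* (-0.87) and *PLB1* (-0.75) were lower with LXA4 than with LXB4, and *PLA2G6* was higher (0.41). With 1 array per compound no interval of any of these differences can be given, and the remaining small differences do not show that the isomers act alike.

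Patterns were then compared over the 5 arrays by the Euclidean distance between log2 values, each centred on its own mean, among the 15374 measured genes. For *PLB1*, itself 1.79 from a flat pattern, the nearest were IDI2-AS1 (0.57), PCOTH (0.68) and GRM4 (0.68). All 3 were highest with LTC4, at 147, 146 and 130, and under the floor in unstimulated cells. *PLA2G4C* lay 0.87 from a flat pattern, and the nearest genes were much closer: AMZ1 (0.13), CD99P1 (0.13) and MOCS1 (0.15), all lowest with LXA4. AMZ1 had 192 with LTB4, 238 with LTC4, 126 with LXA4 and 243 with LXB4, against 298 in unstimulated cells. For *PLA2G6* (0.52 from flat) they were PIGR (0.06), EGR1 (0.09) and EP400 (0.09), all lowest with LXB4. For *DAGLA* (1.39 from flat) they were TG (0.08), AVPR1B (0.15) and METTL27 (0.19), at 137, 144 and 125 with LTB4. These 3 were at the floor on all other arrays, save AVPR1B with 53.7 in unstimulated cells, so their likeness to *DAGLA* comes largely from the floor.

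Other genes of lipid hydrolysis, reacylation and endocannabinoid signalling were described from 5 lists, which hold 71 genes, of which 56 were measured. On its representing probe set, 1 of the 56 was at least 2-fold from unstimulated cells with LTB4. With LTC4, LXA4 and LXB4 there were 0. The share of all genes was 2.43% with LTB4, 2.85% with LTC4, 2.39% with LXA4 and 2.47% with LXB4. The 1 gene was PLCD3, a phospholipase C, with 60.4 with LTB4, against 147 in unstimulated cells (log2 -1.28). The other measured probe set of PLCD3 gave 0.68, so the 2 disagreed in sign. The other 3 stimulated arrays had 133 to 150 on the first of these probe sets. Of 19 measured genes among the other phospholipases A2 and the platelet-activating factor hydrolases, 0 were 2-fold from unstimulated cells on the representing probe set, beside the same shares. PLA2G4F with LTC4 came just short of 2-fold, at 114 against 57.2 in unstimulated cells (log2 0.996). The list medians lay between -0.02 and 0.17. The other measured probe set of PLAAT3 gave -1.43 with LTC4 and -1.11 with LXA4, beside 0.48 and -0.14 on the representing one. PLA2G4A, the calcium-dependent enzyme that frees arachidonic acid for eicosanoid synthesis, was named after its values were seen. It had 2110 with LTB4, 2149 with LTC4, 1847 with LXA4 and 2178 with LXB4, against 1869 in unstimulated cells. Its log2 differences were between -0.02 and 0.22, so this relative of *PLA2G4C* was near its unstimulated signal with LXA4.

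On the representing probe sets, no gene of the remaining 3 lists and, besides PLCD3, no phospholipase C gene was 2-fold from unstimulated cells. Other probe sets of some genes were, in both directions. LPCAT3 had log2 1.515 with LTC4 and 1.225 with LXB4 on its other one, beside -0.637 and -0.511. With LXA4 another probe set of ABHD4 gave 1.153 and of NAAA -1.185, beside -0.31 and 0.049. With LXB4 another of NAPEPLD gave 1.116, beside 0.10. The 5 measured genes of the other phospholipases D had medians of -0.39 with LTB4, 0.12 with LTC4, 0.00 with LXA4 and 0.10 with LXB4. The 10 measured phospholipase C genes had -0.18, 0.02, 0.01 and -0.19 in the same order of compounds. Of the 11 genes of endocannabinoid and neutral lipid hydrolysis, 8 were below 0 with LTB4, 6 with LTC4, 8 with LXA4 and 7 with LXB4, where 44.5%, 36.7%, 43.5% and 45.6% of all genes were. The medians of the 11 genes were -0.20, -0.03, -0.22 and -0.25. The 11 include CNR2, a cannabinoid receptor and not a hydrolase. It was below 0 with LTB4, LXA4 and LXB4 and above 0 with LTC4. The 11 lysophospholipases and reacylating enzymes had medians between -0.09 and 0.02. Between the leukotrienes, on the representing probe sets, PLCD3 was 2.48-fold higher with LTC4 than with LTB4. PLA2G4F, another cytosolic phospholipase A2, was at least 2.35-fold higher, with 114 with LTC4 and a value under the floor with LTB4. Of all genes, 2.43% were 2-fold apart. The other measured probe set of PLCD3 gave a log2 difference of 0.09 between these 2 arrays. The other probe set of ABHD4 gave -1.004, beside 0.233 on the representing one. Between the lipoxins 0 of the 56 were 2-fold apart, beside 1.31% of all genes.

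**Figure D5:**
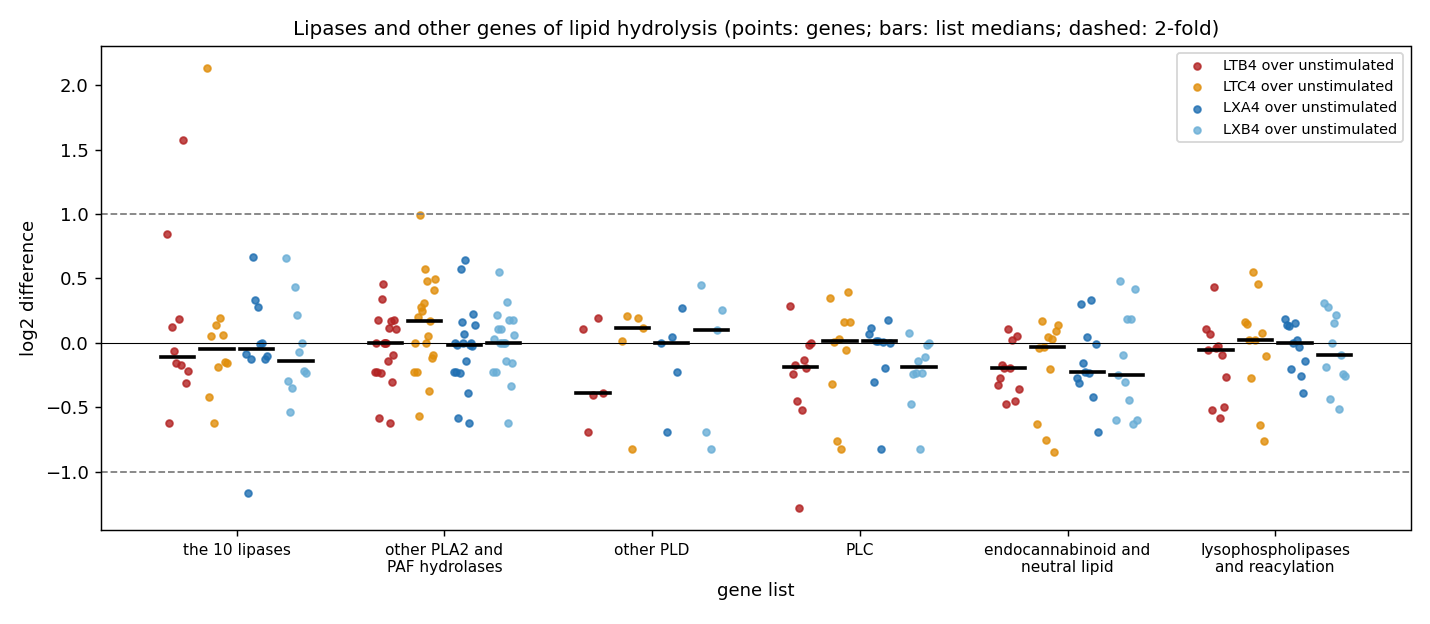
Log2 difference of each eicosanoid over unstimulated cells (vertical axis) for the 10 lipase genes and for the measured genes of 5 other lists; points are genes, black bars list medians, dashed lines 2-fold. Outside the 10 lipases, PLCD3 with LTB4 (-1.28) is the one gene beyond 2-fold on its representing probe set.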

How the data were processed

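Total RNA of MonoMac6 cells was hybridised to 5 arrays, 1 per condition, and groups were taken from the sample titles. The authors deposited linear intensity signals for 54675 probe sets, which the submitters' processing notes credit to GCOS 1.4. Neither algorithm nor settings are stated, and the deposited values have the same trimmed mean (500.1) on every array. Signals were converted to log2. Each array was scaled so that the median of the upper 50% of the probe sets was equal, by factors from 0.978 (unstimulated) to 1.028 (LTC4). Values under the 50th percentile of mean log2 signal (48.7) were set to that floor. A difference with 1 side under the floor is written as at least N-fold.

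Genes were named from the 41097 probe sets with 1 symbol in the platform annotation (1801 had several, 11777 none listed). The gene identifier of 41043 of these 41097 probe sets matched the RefSeq table of GRCh38.p14. The probe set of highest mean signal represented a gene, and at least 2-fold was counted. With 1 array per group there is no test, and the number of arrays limits the precision. Counting was tested on simulated data with the same noise at every signal and changes set in brighter genes alone. That test therefore does not speak for calls in dim genes. Alternatives were a floor at the 30th (17.4) or 70th percentile (243), quantile normalization, values as deposited, the mean of a gene's probe sets and, for the 10 lipases, a 1.5-fold threshold. Named besides the 10 lipases were up to 4 genes per list at least 2-fold apart and the 3 nearest patterns to 4 lipases, with PLA2G4A added after its values were seen. The members and the lists were chosen with earlier results of these data known. Python 3.11.15, pandas 2.3.3 and numpy 2.4.6 were used.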

Additional observations from a re-analysis of the deposited data

How the results depend on the processing

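Quantile normalization, the deposited values and the mean over probe sets kept each count of genes at least 2-fold apart within 1.5 times. The floor did not. At the 30th percentile 2368 genes were 2-fold from unstimulated cells with LTB4, 2570 with LTC4, 2368 with LXA4 and 2297 with LXB4, and 2386 and 1842 were 2-fold apart between the leukotrienes and between the lipoxins. At the 70th percentile the same 6 comparisons had 21, 21, 9, 21, 10 and 2. With the low floor 2 members were 2-fold higher with LTC4, DAGLA joining PLB1, and the bound of DAGLA with LTB4 was a log2 difference of 3.05. With the high floor 6 of the 10 members were measured, and 0 were 2-fold apart in any comparison. PLB1 with LTC4 was then a bound of 0.37. Quantile normalization left 0 members 2-fold apart between the lipoxins. It moved the higher share of called genes to 43.9% with LXA4 and 41.1% with LXB4, beside 29.4% and 20.5%. At 1.5-fold, 3 members passed with LTB4, 2 with LTC4, 2 with LXA4 and 1 with LXB4, and 2 between the leukotrienes and 3 between the lipoxins. No called difference of a member changed sign. The causes were not tested beyond what each floor and threshold sets by its construction. Low signal limits the precision for PLB1, PLA2G4C, PLA2G7 and DAGLA. No paired analysis was possible because each group has 1 array.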
